A study of Rattus norvegicus with 10 samples.

Results

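The genes described here are 10 rat genes whose products make, pass on or use the sulfur of methionine and cysteine on the way to S-adenosylmethionine, taurine and glutathione. They were found on the array by the transcript accession of each probe, which had to belong to Mat1a, Cbs, Cth, Bhmt, Gnmt, Ahcy, Cdo1, Csad, Gss or Ggt1. All 10 were found, among 13837 genes named on the array, on 12 of its 41012 probes, with 2 probes each for Mat1a and Bhmt and 1 for each of the others. All 12 probes were well above background on all 10 arrays, so all 10 genes passed the filter that left 22991 probes to test. Liver RNA of male Sprague Dawley rats was hybridized to one-colour Agilent arrays, 1 per rat. Livers were taken 24 h after sulfur mustard (SM), an alkylating agent that reacts with thiols such as glutathione, was given. Control rats (n = 3) received the solvent alone, and SM rats (n = 4) received SM at 3.5 mg/kg under the skin. SM + MSTF rats (n = 3) received the same SM dose and, 1 h later, 120 mg/kg by mouth of MSTF, a mixture of plant salvianolic acids and total flavonoids. The comparisons ask whether SM changed these genes in the liver and whether they differed when MSTF was given after it.

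In the liver, methionine is turned into S-adenosylmethionine, the cell's main methyl donor, and the homocysteine left after methyl transfer is either methylated back to methionine or passed to cysteine by transsulfuration. Cysteine is then built into glutathione, the main soluble thiol of the cell, or oxidized to taurine and sulfate. Hepatocytes run this whole route at a high rate, and they export glutathione to blood and bile.

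On the arrays, 52.0% to 61.5% of probes were well above background, and no spot was saturated. The 3 control arrays and the array SM + MSTF 3 were on slide 1, the 4 SM arrays on slide 2, and the other 2 SM + MSTF arrays on slide 3, so SM and slide 2 cannot be told apart. All 15 hepatocyte markers that were looked up, such as albumin, were well above background on every array, as the tissue label says. A probe was called changed at a limma adjusted p under 0.05 and a change of at least 1.5-fold. Values below are log2 normalized signals, and since each probe binds at its own strength, levels are compared between arrays of 1 probe and never between genes. RNA was taken from whole tissue, in which fewer cells of a type and less RNA per cell cannot be told apart.

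Of the 10 genes, Csad alone was called in SM versus control, and it fell. The other 9 genes were not called, with fitted log2 fold changes from -0.29 for Mat1a to 0.59 for Ggt1. Over all probes tested, 2.41% were called in this comparison with 1.43% lower and 0.974% higher. No gene of the 10 was called in SM + MSTF versus control, where 0% of all probes were, or in SM + MSTF versus SM, where 1.26% were (0.939% lower and 0.322% higher). At an unadjusted p under 0.05, 1 of the 10, Csad, differed in each comparison with control, where 16.4% of all probes did for SM and 9.54% for SM + MSTF. Between SM + MSTF and SM, 2 of the 10 did, beside 15.9% of all probes. The median log2 fold change of the 10 genes was 0.11 after SM, beside 0.03 for all probes. For SM + MSTF it was 0.05 against control, beside 0.00, and -0.10 against SM, beside -0.02. These comparisons share control, SM or SM + MSTF arrays with each other.

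**Figure D1:**
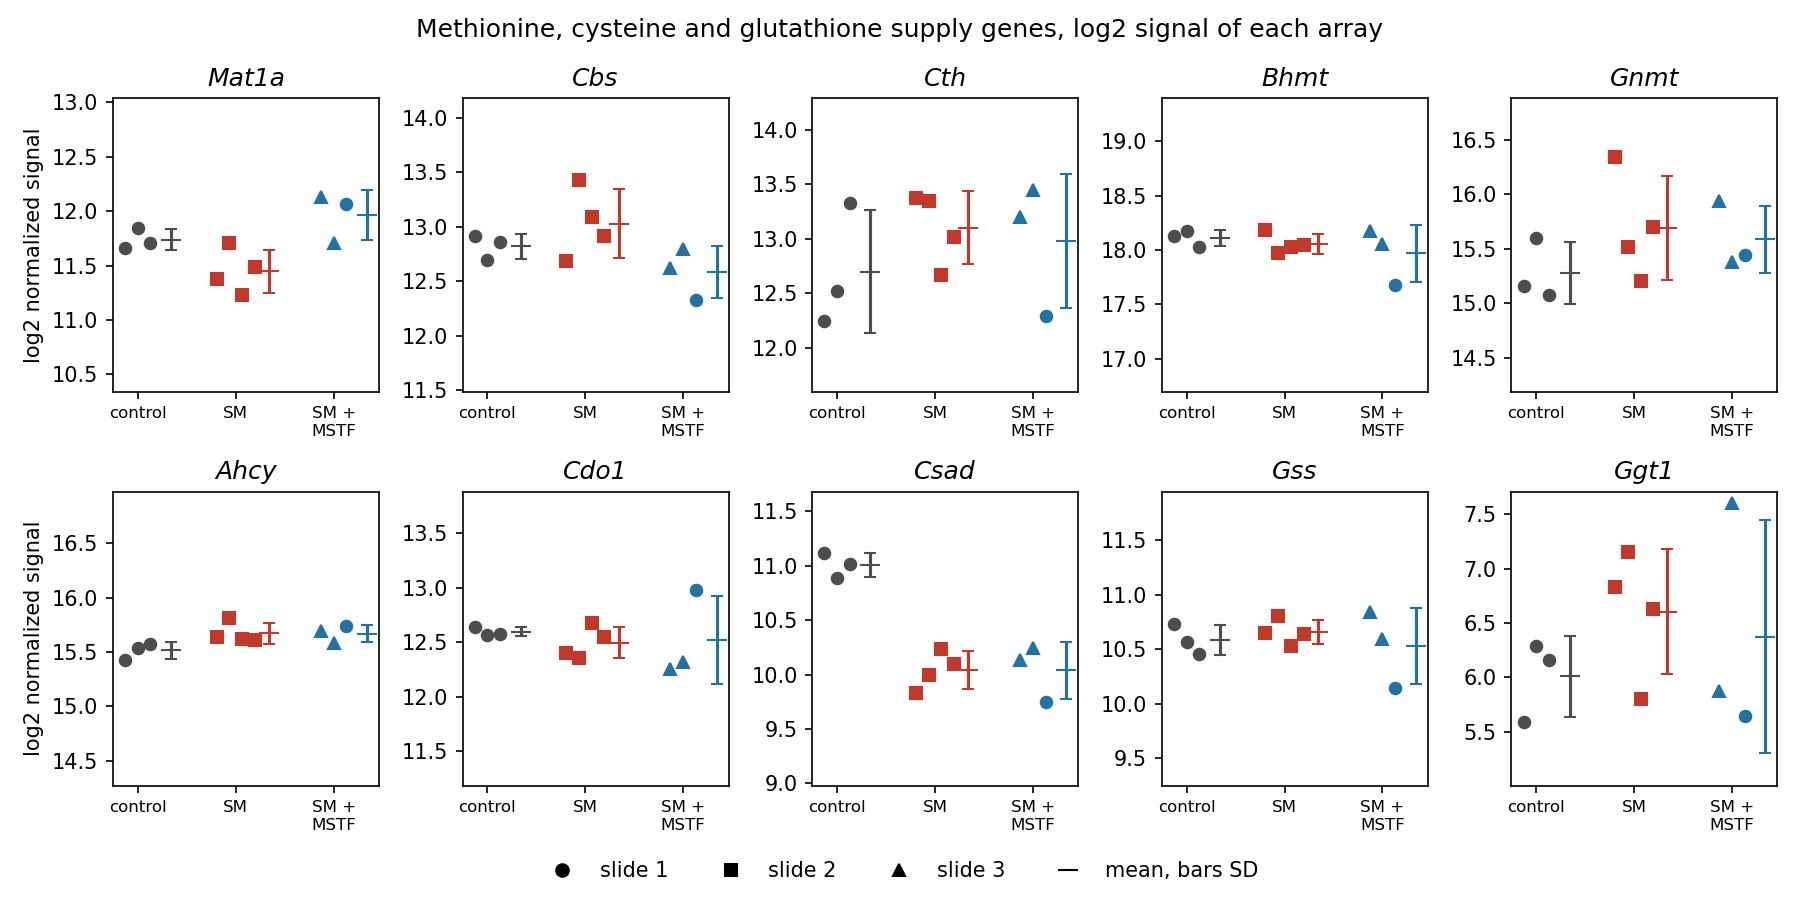
Log2 normalized signal of each of the 10 genes on every array (y axis, log2 units, each panel spanning the same range around its own mean) by group (x axis), with the mean and SD of each group beside the points and the marker shape giving the slide. Csad is the gene in which all 7 SM and SM + MSTF arrays, between 9.74 and 10.24, lay below the 3 control arrays, between 10.89 and 11.12.

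Csad encodes cysteine sulfinic acid decarboxylase, which makes hypotaurine, the direct precursor of taurine, from the oxidation product of cysteine. Its signal was 11.12, 10.89 and 11.02 on the control arrays and 9.83, 10.00, 10.24 and 10.10 on the SM arrays. Every SM array was below every control array. The fitted log2 fold change was -0.97 (SE 0.14, 95% interval -1.29 to -0.65, limma adjusted p = 0.0154), that is, 0.511 of the control level with an interval from 0.409 to 0.639. Of the 10 genes, 2 had SM and control arrays that did not overlap, Csad and Ahcy, beside 18% of all probes. Over the 3 groups, Csad was also the only 1 of the 10 genes past the moderated F-test (adjusted p = 0.0202), which 2.07% of all probes passed. The call in SM versus control was lost when any 1 control array was left out, with adjusted p of 0.0657 without control 1, 0.0596 without control 2 and 0.0566 without control 3, while the log2 fold change lay between -1.03 and -0.91. It was kept without any 1 of the SM or SM + MSTF arrays, while the F-test was no longer passed without SM 1 or any 1 control array.

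On the SM + MSTF arrays Csad stood at 10.14, 10.24 and 9.74, again below every control array and overlapping the SM arrays. The fitted difference from control was as large as with SM alone, with a log2 fold change of -0.97 (SE 0.15, 95% interval -1.31 to -0.62), but the limma adjusted p was 0.294 and it was not called. Its unadjusted p was 0.000104. In this comparison the smallest adjusted p of any probe was 0.246. Within slide 1, the array SM + MSTF 3 was lower than the control mean by a log2 difference of -1.26, and the 2 arrays on slide 3 differed from it by -0.87 and -0.76. A fit with slide as a fixed block called the gene (-1.26, adjusted p = 0.0198), but its treated arm is that 1 array, assumed to vary like the others, and with slide as a random block the gene was not called (-1.01, adjusted p = 0.397). Without SM + MSTF 3 the log2 fold change was -0.82 and the gene was called (adjusted p = 0.0303). Between SM + MSTF and SM the log2 fold change was 0.00 (SE 0.14, 95% interval -0.32 to 0.32, adjusted p = 0.999), so a difference between these groups of up to 1.25-fold either way lies within the interval. 

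**Figure D2:**
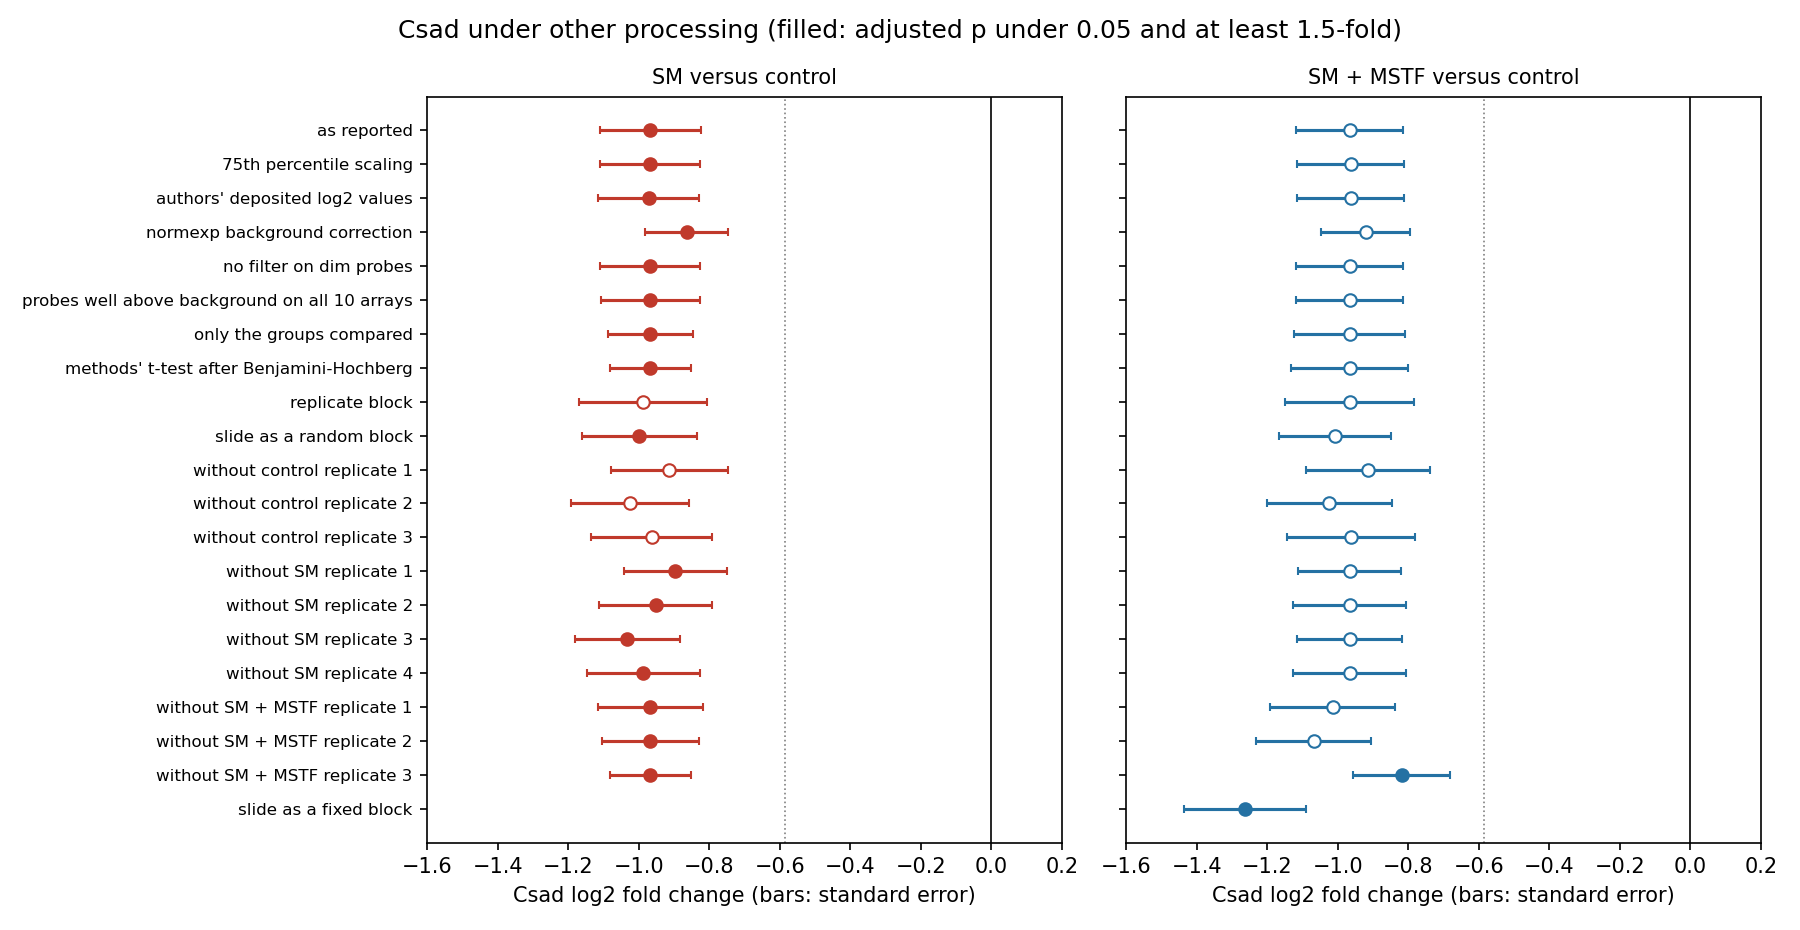
Log2 fold change of Csad in SM versus control (left) and in SM + MSTF versus control (right) on the x axis, with bars giving the standard error, under each way of processing the arrays on the y axis. Every value lies between -1.26 and -0.82 in both panels, below the dotted line of a 1.5-fold fall, and filled points are those with an adjusted p under 0.05. The point for slide as a fixed block rests on 1 treated array, SM + MSTF 3.

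The 250 bases of the RefSeq genome before the start of Csad are shown beside those of Mat1a, the enzyme at the head of the route, because the region before Csad stands apart from most others in its content of CpG pairs, which are in capitals. They are read on the strand of each gene in the GRCr8 build, where Csad is at chr7:135215582-135215831 on the minus strand and Mat1a at chr16:17016918-17017167 on the plus strand.
Csad: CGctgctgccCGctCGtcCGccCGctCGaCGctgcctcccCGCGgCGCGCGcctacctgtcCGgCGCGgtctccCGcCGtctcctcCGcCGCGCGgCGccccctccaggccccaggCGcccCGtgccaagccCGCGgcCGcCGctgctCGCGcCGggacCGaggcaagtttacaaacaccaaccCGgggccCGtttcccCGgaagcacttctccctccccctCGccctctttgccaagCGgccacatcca
Mat1a: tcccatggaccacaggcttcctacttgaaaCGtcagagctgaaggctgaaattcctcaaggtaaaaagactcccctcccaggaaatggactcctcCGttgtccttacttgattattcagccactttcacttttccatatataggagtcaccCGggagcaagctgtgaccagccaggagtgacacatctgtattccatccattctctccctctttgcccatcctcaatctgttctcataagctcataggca
The Csad window holds 37 CpG pairs at a G and C content of 76.0%, and the Mat1a window holds 3 at 48.0%. Over the 33469 windows of this length listed for the rat, the median was 5 pairs and 51.2%, and 1.9% of windows had at least as many pairs as Csad. Windows were listed for 9 of the 10 genes, and the other 7 held between 6 and 17 pairs. In the same 9 windows, on both strands, the letters of the antioxidant response element TGACNNNGC, which also match some AP-1 sites, were in 0, against 10.1% of all windows. The letters TGATGNAA of the ATF4 amino acid response element were also in 0, against 3.4%, and TATAAA was in 1, that of Bhmt, against 12.9%. These counts describe letters in short windows and say nothing of the factors that bind them.

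The enzymes of the methionine cycle were measured without a call. Mat1a encodes the liver form of methionine adenosyltransferase, which makes S-adenosylmethionine. Its brighter probe gave 11.66, 11.85 and 11.71 on the control arrays, 11.38, 11.70, 11.23 and 11.48 on the SM arrays, and 12.13, 11.70 and 12.07 on the SM + MSTF arrays. SM overlapped control, and SM + MSTF overlapped control, but the lowest SM + MSTF array lay just above the highest SM array. The log2 fold change was -0.29 (SE 0.14, adjusted p = 0.355) in SM versus control and 0.23 (SE 0.15, adjusted p = 0.656) when SM + MSTF was set against control. Against SM it was 0.52 (SE 0.14, unadjusted p = 0.00464, adjusted p = 0.132). Mat1a was the only 1 of the 10 genes whose SM + MSTF and SM arrays did not overlap, beside 14.7% of all probes. Its second probe had the same signs, with log2 fold changes of -0.23, 0.18 and 0.40, and in it SM + MSTF and SM overlapped. Leaving out single arrays or changing the processing kept the SM + MSTF versus SM value between 0.40 and 0.65, with adjusted p from 0.0648 to 0.319, so no setting made a call.

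Bhmt encodes betaine-homocysteine methyltransferase, which returns homocysteine to methionine with a methyl group from betaine. Its brighter probe stood between 18.03 and 18.18 on the control arrays, 17.97 and 18.18 on the SM arrays, and 17.68 and 18.18 on the SM + MSTF arrays. These ranges overlapped, with log2 fold changes against control of -0.05 (SE 0.12) for SM and -0.14 (SE 0.13) for SM + MSTF, and of -0.09 (SE 0.12) for SM + MSTF against SM. The brighter probe lies near the top of the quantile normalized scale, where values have little room to move. Its small changes and errors thus say little of how steady Bhmt was. The second probe had the opposite sign in SM versus control, 0.08 (SE 0.36), and was at 14.57 on SM + MSTF 3 against 16.39 and 15.96 on the other 2 arrays of that group. Both probes were lowest on SM + MSTF 3.

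Gnmt encodes glycine N-methyltransferase, an abundant liver enzyme that uses up surplus S-adenosylmethionine. Its signal was 15.15, 15.60 and 15.08 on the control arrays, 16.34, 15.52, 15.21 and 15.70 on the SM arrays, and 15.94, 15.38 and 15.44 on the SM + MSTF arrays. The 3 groups overlapped, and the log2 fold changes were 0.41 (SE 0.26) in SM versus control, 0.31 (SE 0.28) for SM + MSTF against control and -0.10 (SE 0.26) against SM. A doubling by SM was at the edge of the interval, which ran from -0.17 to 1.00. Ahcy encodes adenosylhomocysteinase, which splits the S-adenosylhomocysteine left by methyl transfer. It was the steadiest gene of the 10, with its arrays spanning 0.39 on the log2 scale. Its signal was 15.43, 15.54 and 15.57 on the control arrays, 15.64, 15.82, 15.62 and 15.61 on the SM arrays, and 15.69, 15.58 and 15.74 on the SM + MSTF arrays. All 7 arrays of the SM-treated groups were above the 3 control arrays, and in SM + MSTF versus control, where 15.4% of all probes had groups that did not overlap, Ahcy and Csad were the 2 such genes. The size was small, with a log2 fold change of 0.16 (SE 0.09, adjusted p = 0.445) in SM versus control and 0.16 (SE 0.10, adjusted p = 0.644) in SM + MSTF versus control.

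Cbs and Cth encode the 2 enzymes of transsulfuration, cystathionine β-synthase, which joins homocysteine to serine, and cystathionine γ-lyase, which splits the product to give cysteine. Cbs stood at 12.92, 12.69 and 12.86 on the control arrays, 12.68, 13.43, 13.09 and 12.91 on the SM arrays, and 12.62, 12.80 and 12.33 on the SM + MSTF arrays. The SM arrays reached highest and the SM + MSTF arrays lowest, and all pairs of groups overlapped. The log2 fold change of Cbs was 0.21 (SE 0.18, adjusted p = 0.616) in SM versus control, -0.24 (SE 0.19, adjusted p = 0.717) for SM + MSTF against control and -0.45 (SE 0.18, unadjusted p = 0.032, adjusted p = 0.271) against SM. With Mat1a, Cbs was 1 of the 2 genes of the 10 with an unadjusted p under 0.05 in SM + MSTF versus SM, and the signs of the 2 genes were opposite. Cth varied widely within each group, at 12.24, 12.52 and 13.33 on the control arrays, 13.37, 13.35, 12.67 and 13.02 on the SM arrays, and 13.20, 13.45 and 12.29 on the SM + MSTF arrays. Its log2 fold change of 0.41 (SE 0.33, 95% interval -0.34 to 1.15) in SM versus control was within the spread between arrays, as were 0.28 (SE 0.35) and -0.12 (SE 0.33) in the other 2 comparisons.

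Cdo1 encodes cysteine dioxygenase, the step before Csad, which oxidizes cysteine to the sulfinic acid. Its signal was 12.64, 12.57 and 12.58 on the control arrays, 12.40, 12.36, 12.68 and 12.54 on the SM arrays, and 12.26, 12.32 and 12.98 on the SM + MSTF arrays. The control arrays lay close together inside the span of both other groups, and SM + MSTF 3 was the highest array. The log2 fold changes were -0.10 (SE 0.17, 95% interval -0.48 to 0.28) in SM versus control, -0.08 (SE 0.18) for SM + MSTF against control and 0.02 (SE 0.17) against SM. The lower limit of the interval for Cdo1 in SM versus control, -0.48, lies above the upper limit for Csad, -0.65, although the difference between the 2 genes was not itself tested.

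At the end of the route, Gss encodes glutathione synthetase, which adds glycine in the last step of glutathione synthesis, and Ggt1 encodes γ-glutamyltransferase 1, the cell surface enzyme that begins the breakdown of glutathione outside the cell. Gss stood at 10.74, 10.57 and 10.46 on the control arrays, 10.65, 10.80, 10.53 and 10.64 on the SM arrays, and 10.84, 10.60 and 10.15 on the SM + MSTF arrays. These groups overlapped, with log2 fold changes against control of 0.07 (SE 0.16) for SM and -0.06 (SE 0.17) for SM + MSTF, and of -0.13 (SE 0.16) for SM + MSTF against SM. A change of Gss by SM beyond -0.28 or 0.42 on the log2 scale lies outside the 95% interval. Ggt1 was the most variable gene of the 10, spanning 2.02 on the log2 scale, with 5.59, 6.29 and 6.16 on the control arrays, 6.83, 7.15, 5.80 and 6.63 on the SM arrays, and 5.87, 7.60 and 5.64 on the SM + MSTF arrays. No group of Ggt1 was apart from another, and a single array, SM + MSTF 2, was the highest. The log2 fold change in SM versus control was 0.59 (SE 0.47, 95% interval -0.46 to 1.65, adjusted p = 0.589), the highest fitted value of the 10 genes and also the 1 with the widest error. For SM + MSTF it was 0.36 (SE 0.50) against control and -0.23 (SE 0.47) against SM.

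**Figure D3:**
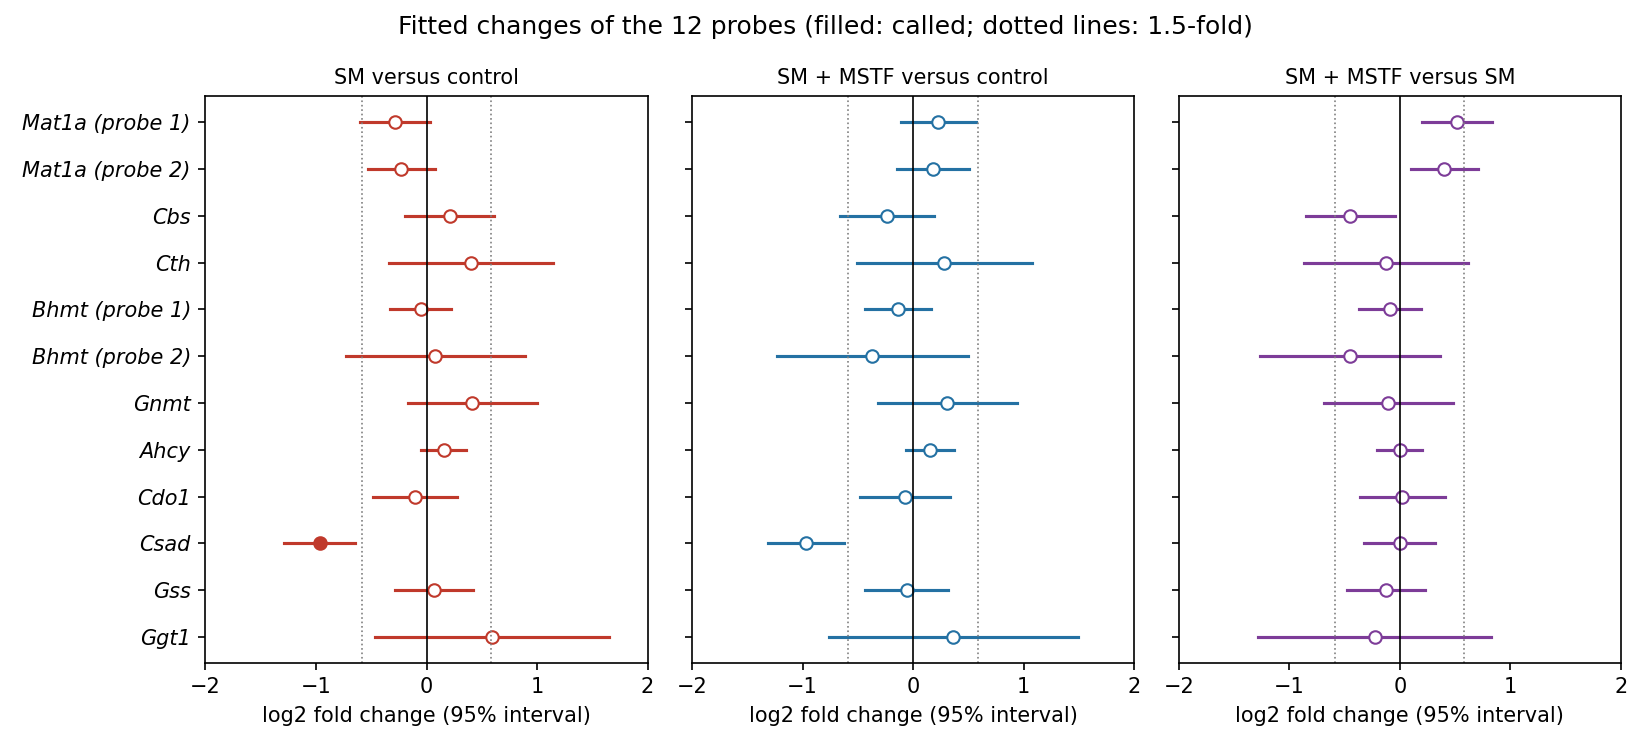
Fitted log2 fold change (x axis, with the 95% interval as a line) of the 12 probes (y axis) for SM against control (left), SM + MSTF against control (middle) and SM + MSTF against SM (right). The filled point is the single call, Csad at -0.97 in SM versus control, and Csad has the same fitted value in the middle panel and 0.00 in the right panel.

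Across the route, the fitted direction in SM versus control was up in 6 genes and down in 4, and in SM + MSTF versus SM it was up in 3 and down in 7, with Csad, at 0.00, counted among these 3. Of the 10 genes, 7 had their largest SD in the SM + MSTF group, and in 6 the array SM + MSTF 3 was the 1 farthest from the other 2 arrays of its group. These counts were not made over all probes, so they are not shown to be particular to the 10 genes. Without SM + MSTF 3, limma called 248 of all probes in SM + MSTF versus control, and with it 0.

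The genes around the route were looked at in 5 lists with 60 genes, of which 44 could be tested. None was called by limma in any of the 3 comparisons. At an unadjusted p under 0.05, 6 of the 44 differed in SM versus control, where 16.4% of all probes did. Between SM + MSTF and control 2 differed, beside 9.54% of all probes. Between SM + MSTF and SM 7 did, beside 15.9% of all probes. One of these, Ggt7, passed the filter through the 4 SM arrays alone and was well above background on 0 of the 3 SM + MSTF arrays. Its difference thus rests on dim SM + MSTF values. From each list, the 2 genes of lowest unadjusted p in SM versus control are named.

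In the list of the methionine cycle and methyl group supply, 12 of 16 genes were tested and 0 were called, with a median of 0.19 after SM on the log2 scale. Mtr, methionine synthase, which uses folate in place of betaine to rebuild methionine, had 6.50, 6.49 and 6.66 on the control arrays and 6.05, 6.23, 6.31 and 6.03 on the SM arrays. Its SM and control groups did not overlap, beside 18% of all probes. Its log2 fold change of -0.39 (SE 0.10, adjusted p = 0.0809) had the lowest adjusted p of the 44 genes in this comparison but was under 1.5-fold. Mat2b, the regulatory subunit of the methionine adenosyltransferase found outside the liver as well, had a log2 fold change of 0.26 (SE 0.10, adjusted p = 0.233).

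Among the methyltransferases that use S-adenosylmethionine, 6 of 8 genes were tested and 0 were called, with a median of 0.34 on the log2 scale after SM, beside 0.03 for all probes. The values of the 6 representative probes ran from 0.13 to 1.37, while a second probe of Gamt, the lowest of them, had -0.01. Pemt, which makes phosphatidylcholine by methylation in the liver, had a log2 fold change of 0.33 (SE 0.11, adjusted p = 0.156) after SM, and SM + MSTF was at -0.27 (SE 0.11, adjusted p = 0.269) relative to SM. Nnmt, nicotinamide N-methyltransferase, had 0.35 (SE 0.18, adjusted p = 0.398) in SM versus control.

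In the list of cysteine breakdown, taurine and sulfide, 8 of 11 genes were tested and 0 were called. Fmo1, a flavin monooxygenase that also oxidizes hypotaurine to taurine, the step after Csad, had a log2 fold change of 0.51 (SE 0.20, adjusted p = 0.247) in SM versus control, and its groups overlapped. Slc6a6, the taurine transporter, stood at 6.86, 7.89 and 6.94 on the control arrays and 8.20, 7.67, 7.12 and 7.83 on the SM arrays. These overlapped, with a log2 fold change of 0.48 (SE 0.29, adjusted p = 0.459). Beside -0.97 for Csad, Cdo1 before it on the taurine branch had a fitted value of -0.10. Fmo1 after it and the transporter Slc6a6 had 0.51 and 0.48, but these 2 were named for their low p in this comparison. The 8 tested genes of the list ran from 0.06 to 0.51. Ado, Baat and Gadl1 were not tested, so these values do not describe the whole branch.

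Of the genes of glutathione synthesis, recycling and breakdown, 13 of 16 were tested and 0 were called. Cndp2, a dipeptidase that splits cysteinylglycine, had a log2 fold change of 0.41 (SE 0.13, adjusted p = 0.147) in SM versus control, and Gsr, glutathione reductase, had 0.49 (SE 0.19, adjusted p = 0.243). In both genes the SM arrays were all above the control arrays, while SM and control did not overlap in 18% of all probes. In Gsr the lowest SM array, at 9.13, was only just above the highest control array, at 9.12. Gsr stood at 9.12, 9.08 and 8.66 on the control arrays, 9.65, 9.34, 9.66 and 9.13 on the SM arrays, and 9.28, 8.85 and 8.65 on the SM + MSTF arrays. With MSTF its log2 fold change was -0.03 (SE 0.21) against control and -0.52 (SE 0.19, unadjusted p = 0.0246, adjusted p = 0.249) against SM. Gclc, which holds the catalytic site of the limiting enzyme of glutathione synthesis and was named after its values were seen, had 0.29 (SE 0.24, adjusted p = 0.605) in SM versus control. Ggct, a γ-glutamylcyclotransferase also named after its values were seen, had -0.71 (SE 0.18, adjusted p = 0.112) in SM + MSTF versus SM.

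Of the 9 genes for the uptake of cystine, cysteine and methionine, 5 were tested and 0 were called, and Slc7a11, the cystine carrier of the cystine and glutamate exchanger, was among the 4 that did not pass the filter on dim probes. Slc3a2, its partner chain, had a log2 fold change of -0.20 (SE 0.13, adjusted p = 0.478) in SM versus control. Slc38a2, a sodium-coupled carrier of neutral amino acids, stood at 10.44, 10.49 and 10.41 on the control arrays, 9.99, 10.08, 10.22 and 10.59 on the SM arrays, and 10.64, 10.81 and 11.22 on the SM + MSTF arrays. Its SM + MSTF arrays were above all others. Over all probes, groups did not overlap in 15.4% for SM + MSTF versus control and in 14.7% for SM + MSTF versus SM. The log2 fold change of Slc38a2 in SM + MSTF versus SM was 0.67 (SE 0.17, adjusted p = 0.105).

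**Figure D4:**
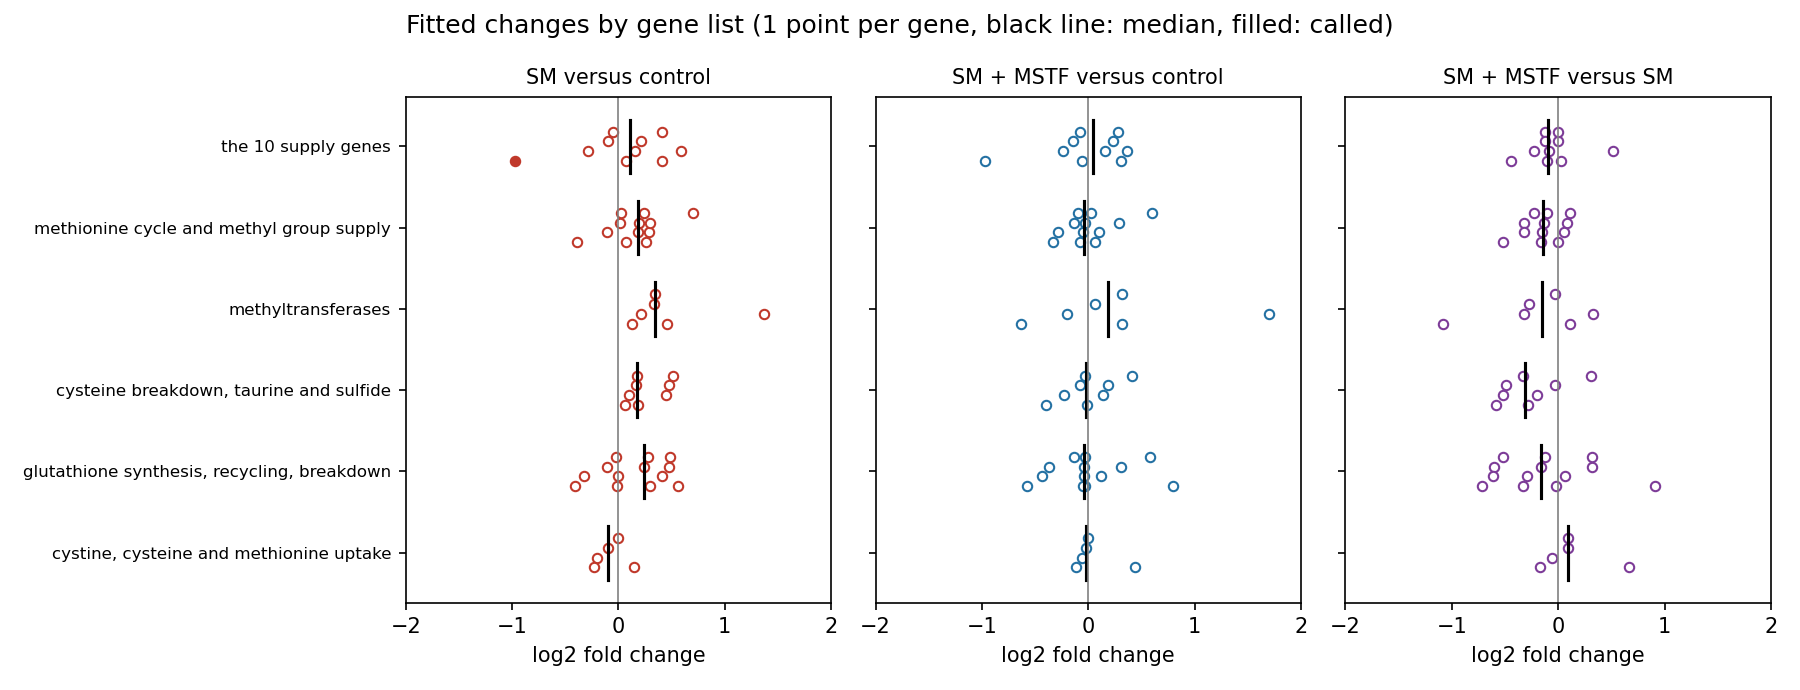
Fitted log2 fold change (x axis) of each tested gene, 1 point per gene, for the 10 supply genes and the 5 lists around them (y axis) in the 3 comparisons, with the median of each list as a black line. Csad in SM versus control is the single filled point, and the 44 genes of the lists have no call in any panel.

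Markers of the cell types that a piece of liver can hold were set beside the Csad result. The summed signal of the 15 hepatocyte markers was between 2650230 and 2727010 on the control arrays, 2582950 and 2744460 on the SM arrays, and 2559900 and 2716280 on the SM + MSTF arrays. This sum is carried by probes at the top of the quantile normalized scale, such as Tf at 18.72 on all 3 SM + MSTF arrays, and has little room to move, so its overlap says little of the hepatocyte share. Gene by gene, the log2 fold changes of the 15 in SM versus control ran from -0.39 to 0.69 with a median of -0.03. All 8 markers of stellate cells and fibroblasts were tested, and their sum ran from 27332 to 30671 on the control arrays, from 21170 to 23570 on the SM arrays and from 17840 to 29321 on the SM + MSTF arrays. All SM arrays were below the control arrays in this sum, and 0 of the 8 genes were called. The sum follows its brightest probes, those of Col3a1 and Col1a2. After SM the collagen genes Col1a1, Col1a2 and Col3a1 had log2 fold changes of -0.99, -0.73 and -0.23. Lrat and Reln had -0.20 and -0.09, while Pdgfrb, Des and Dcn had 0.09, 0.20 and 0.33. The sum of the 9 macrophage and Kupffer cell markers was between 108133 and 138726 on the control arrays, 70611 and 133148 on the SM arrays and 114159 and 144515 on the SM + MSTF arrays. The log2 fold changes of the 9 were all below 0 in SM versus control, from -0.60 to -0.04. In SM + MSTF versus SM all 9 were above 0, from 0.27 to 0.96. There 4 had an unadjusted limma p under 0.05, beside 15.9% of all probes, and none was called. Of 52 marker genes tested, limma called 2 in SM versus control, the hepatocyte gene Apoa2, which was higher, and the natural killer cell gene Klrd1, which was lower at a log2 fold change of -1.22 (adjusted p = 0.0277). In SM + MSTF versus SM, Klrd1 was the 1 marker called, at 1.15 on the log2 scale (adjusted p = 0.0455). Klrd1 was well above background on only 2 of the 4 SM arrays and passed the filter through the control and SM + MSTF arrays. Both of its calls rest on these dim SM values. Nkg7, another natural killer cell marker, had -0.28 (limma adjusted p = 0.726) in SM versus control, where its groups overlapped. The sums of the other lists overlapped between control and SM arrays. For the 4 of 8 bile duct cell markers tested they were 839 to 991 and 796 to 1141, for the 2 of 7 neutrophil markers 246 to 498 and 274 to 1545, and for the 4 of 7 endothelial cell markers 20812 to 20999 and 20134 to 22081. For the 5 of 9 lymphocyte markers they were 1226 to 1265 and 672 to 1502, and for the 5 of 7 erythroid cell markers 5381 to 15740 and 7095 to 22496. These sums follow their brightest probes and can hide shifts of single genes. In SM versus control the 5 lymphocyte markers had log2 fold changes from -2.18 to -0.11, and the 5 erythroid cell markers from 0.36 to 1.04. In each of these lists 2 had an unadjusted limma p under 0.05, beside 16.4% of all probes. The 2 lymphocyte markers were Klrd1 and Cd79b, the gene at -2.18. Like Klrd1, Cd79b was well above background on only 2 of the 4 SM arrays. It passed the filter through the control arrays, so its fall also rests on dim SM values. Values ran from -0.17 to 0.34 for bile duct, 0.61 to 0.75 for neutrophil and -0.07 to 0.32 for endothelial cell markers. The neutrophil genes Mpo, Ngp, Camp, Mmp8 and Cxcr2 and the bile duct genes Krt7, Sox9, Spp1 and Muc1 were among those not tested. The part of these cell types in the Csad result was not tested.

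The 5 named probes of other genes whose log2 signal followed Csad most closely over the 10 arrays, out of 11797 compared, were those of St13, a co-chaperone of Hsp70 (Pearson r = 0.94), Khdrbs1, an RNA-binding protein (r = 0.92), Armt1 (r = 0.91), Gtf2ird1, a transcription factor (r = 0.90), and Spart (r = 0.90). These are descriptions over arrays that share the contrast with control. All 5 had control arrays above all 7 other arrays, but with smaller steps than Csad, from -0.26 for Armt1 to -0.18 for Gtf2ird1 on the log2 scale in SM versus control, and limma called none of them there. The order depended on the processing, since under 75th percentile scaling Khdrbs1 came first and St13 was at place 102. With normexp background correction St13 came first and Khdrbs1 was at place 116.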

How the data were processed

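Per the labels and the methods, RNA from 10 rat livers was hybridized to one-colour arrays, 1 per rat. The authors read each spot with Agilent Feature Extraction 10.7 (submitters' processing notes), which gives a deposited background-subtracted intensity, and quantile normalized the arrays in GeneSpring, depositing log2 values per probe. Here the intensities, without control spots and spots marked not uniform (0 to 4 per array), went through quantile normalization across all 10 arrays, then log2, then a mean over the spots of a probe. A probe was tested if some group had it well above background on all of its arrays and each group had 2 or more values. All groups entered 1 limma fit (R 4.3.3, limma 3.58.1) with Benjamini-Hochberg adjustment over the 22991 probes. The procedure was tested on simulated data. Through their accessions, 17512 of 41012 probes were named from RefSeq genes of GRCr8. The array follows an older build, so no coordinates are given for probes, and those of the sequence windows are of GRCr8. A gene is represented by its tested probe of highest mean signal. The members, lists and tests were chosen with earlier results of these data known. Named are all members, in each list the genes called or the 2 of lowest p in SM versus control, and the 5 probes most correlated with Csad. The windows before gene starts came from RefSeq. Marker lists covered hepatocytes, bile duct cells, macrophages and Kupffer cells, neutrophils, endothelial cells, stellate cells and fibroblasts, lymphocytes and erythroid cells. The alternatives were another scaling, the authors' table, background correction by normexp (offset 50), other filters, the methods' tests, blocks for replicate number and slide, and each array left out. Each rat is 1 sample, and precision is limited by their number.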

Additional observations from a re-analysis of the deposited data

Results flagged for a closer look

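Ahcy on the array SM 2 lay apart from the other 3 SM arrays. Its log2 signal was 15.82, with the nearest other array at 15.64 and the farthest at 15.61, so the gap was 0.868 of the range of the group, above the 95% critical value of Dixon's test for 4 arrays. Of 22 groups of 4 arrays examined in this way, over the probes of the named genes, 1 was past this value, and chance gives about 1 in 20. The slide and the processing were shared by all 4 SM arrays.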

How the results depend on the processing

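Csad was called in SM versus control under 75th percentile scaling, with the deposited log2 values, with normexp and with both other filters. It was also called with only the groups compared, with the methods' t-test with and without adjustment, and with slide as a random block. The rule with no fold minimum kept the call too, but dropping that minimum could not have removed it. The log2 fold change of Csad stayed between -1.03 and -0.86. Same-numbered arrays did not pair (correlations of deviations from -0.10 to 0.17, 3 of 9 over 0.1), and with replicate number as a block the count of the 10 genes called fell to 0 in SM versus control (Csad -0.99, adjusted p = 0.0742) and to 0 over the 3 groups. The block changed no other count of the 10 genes or of the lists. With 1 array left out, between 0 and 1 of the 10 genes were called for SM and for SM + MSTF against control and over the 3 groups, and 0 against SM. In SM + MSTF versus control the count was 1, Csad, by the methods' t-test without adjustment and with slide as a fixed block, a fit in which SM + MSTF 3 is the only treated array set against controls. One-way ANOVA without adjustment called 2 genes over the 3 groups, Mat1a and Csad. The methods' t-test without adjustment called 1 list gene in SM versus control, Ahcyl2, and 2 in SM + MSTF versus SM, Ggct and Slc38a2, and the fixed slide block, again on that 1 array, called 2 in SM + MSTF versus control, Ethe1 and Abcc2, both lowest on SM + MSTF 3. The cause of these changes was not tested. Of 1318 values of genes not called, 49 changed sign under an alternative. Many of the 1318 could not change sign, since settings such as the other filters and the methods' t-test leave the fitted value as it was. The 49 are thus no measure of how stable the directions were. Over all probes, 553, 0 and 290 were called in the 3 comparisons, 226, 0 and 60 with normexp, 53, 0 and 64 with the replicate block and 85, 0 and 102 with slide as a random block. With 1 array left out the counts were 61 to 715, 0 to 248 and 96 to 291. The methods' t-test called 1131, 285 and 863 without adjustment and 320, 0 and 13 with it. Slide as a fixed block gave 291 in SM + MSTF versus control. No filter on dim probes and the filter on all 10 arrays gave 342 and 336 in SM versus control. The filter on all 10 arrays gave 140, and only the groups compared 147, in SM + MSTF versus SM. Slide as a fixed block could not be fitted for the comparisons with SM.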
